A study of Mus musculus with 2 samples.

Results

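Voltage-gated sodium channels open when a neuron depolarises and carry the inward current of the action potential. Each channel has 1 large alpha subunit, which forms the pore and the voltage sensors, and associates with small beta subunits, single-pass membrane proteins with an immunoglobulin-like domain that tune gating and bind adhesion and cytoskeletal proteins. In the adult forebrain the alpha subunits are concentrated at the axon initial segment and at nodes of Ranvier. Transcripts of 8 subunit genes were measured in mouse hippocampus, namely the alpha subunit genes Scn1a, Scn2a, Scn3a, Scn8a and Scn9a and the beta subunit genes Scn2b, Scn3b and Scn4b. They were chosen by gene symbol and are 8 of the 55536 annotated genes in the deposited gene tables. All 8 symbols matched 1 gene each.

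Total RNA from 2 adult female B6CASTF1/J mice, the first-generation hybrid of C57BL/6J and CAST/EiJ, was sequenced as 1 library per mouse. Both mice were 8 to 10 months old, and the labels name no treatment. The labels call them animal 1 and animal 5 and biological replicates 1 and 2, and state that 300 ng of RNA went into each library. ERCC spike-ins, a set of synthetic RNAs, were added to both. Both labels also carry the same donor identifier, so that the spread between the libraries is that of 2 animals only if the animal numbers are taken as given. The tissue term is a layer of the hippocampus, and the sources used here do not name the dissected layer. There is 1 group and no condition to compare. The reads of these hybrids were assigned to transcripts of the C57BL/6J-based build GRCm38 (mm10), and the effect of CAST/EiJ alleles on the subunit values was not tested. In tissue of many cell types, fewer cells of a type and less RNA per cell cannot be told apart.

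Depth was 34147402 expected counts on annotated genes in replicate 1 and 28356913 in replicate 2, and 15245 genes reached 1 TPM in both libraries. TPM is a transcript level scaled for transcript length and library total, so it can be compared between genes. Of 60 marker genes in 10 cell type lists, 57 were at 1 TPM or more in both libraries, with the glutamatergic marker Slc17a7 at 592 and 613 TPM and the interneuron marker Gad1 at 191 and 177 TPM. Markers of the choroid plexus, the epithelium that secretes cerebrospinal fluid, summed to 30.1 TPM in replicate 1 but 644 TPM in replicate 2, mostly from Ttr at 21.8 and 615 TPM. The choroid plexus genes Ttr, Clic6, Sostdc1, Kcnj13 and Kl were each over 2-fold higher in replicate 2. Among markers of striatal neurons the sums were 42.8 and 50.7 TPM, and markers of mature oligodendrocytes had a median log2 ratio of replicate 2 over replicate 1 of 0.27.

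Alpha subunit genes share an unusual piece of gene structure that separates their transcripts. Exon 5, which encodes part of the voltage sensor of the first channel domain, is annotated in 2 neighbouring copies in Scn2a, Scn3a, Scn8a and Scn9a, and a full-length transcript holds 1 of them. The copies are known as the neonatal form (the upstream copy) and the adult form (the downstream copy) from studies of brain development. The downstream copy is 92 bases long in all 4 genes. It is shown 5′ to 3′ on the gene's own strand because transcripts are grouped later by the copy they hold. Capitals mark the 8 bases that are not the same in all 4 genes.
Scn2a downstream copy: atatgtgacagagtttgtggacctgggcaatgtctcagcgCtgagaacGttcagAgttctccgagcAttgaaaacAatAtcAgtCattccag
Scn3a downstream copy: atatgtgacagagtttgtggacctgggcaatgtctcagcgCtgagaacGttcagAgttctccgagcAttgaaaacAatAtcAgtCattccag
Scn8a downstream copy: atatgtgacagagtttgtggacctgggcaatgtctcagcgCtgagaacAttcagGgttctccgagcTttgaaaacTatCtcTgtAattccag
Scn9a downstream copy: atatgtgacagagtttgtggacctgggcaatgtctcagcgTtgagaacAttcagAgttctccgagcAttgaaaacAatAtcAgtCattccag

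The sequences were read from the GENCODE M21 transcripts on GRCm38 (mm10). The downstream copy lies at chr2:65682690-65682781 on the plus strand in Scn2a and at chr2:65525695-65525786 on the minus strand in Scn3a. In Scn8a it lies at chr15:100959603-100959694 on the plus strand, and in Scn9a at chr2:66563336-66563427 on the minus strand. All are coding exons.

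The downstream copies are alike across the genes, with 84 of 92 bases the same in all 4. Those of Scn2a and Scn3a are identical, and that of Scn9a differs from them at 2 bases. Scn8a stands furthest from the rest, with 7 differences from each of the other 3 genes. Scn1a has no second copy of this exon in the annotation.

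The 8 genes lie on 3 chromosomes. Scn3a (chr2:65457118-65567627, minus strand), Scn2a (chr2:65620771-65767447, plus strand), Scn1a (chr2:66270778-66440840, minus strand) and Scn9a (chr2:66480080-66634962, minus strand) form a cluster, in which Scn3a and Scn2a are 53.1 kb apart and Scn1a and Scn9a 39.2 kb apart. Scn8a is alone at chr15:100869858-101045938 on the plus strand. The beta subunit genes are all on the plus strand of chromosome 9, with Scn3b at chr9:40269217-40291618 and, 8.32 kb apart, Scn2b at chr9:45117782-45130070 and Scn4b at chr9:45138395-45154152. Neighbours in the genome had unlike levels: Scn2a was 7.40-fold and 8.74-fold above Scn3a in the 2 libraries, and Scn2b was 16.1-fold and 11.7-fold above Scn4b.

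Scn2a, which encodes NaV1.2, a channel of excitatory neurons and of unmyelinated axons, had the highest level of the 5 alpha subunit genes. Its 2 libraries gave 126 and 139 TPM, in replicates 1 and 2, a mean of 133 ± 9.75 TPM (SD, n = 2), from 16529 and 15222 counts. This level was above that of 94.8% of the protein-coding genes detected in both libraries.

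Scn8a encodes NaV1.6, the main channel of the mature axon initial segment and node. It was close behind in TPM, at 114 and 121 TPM (118 ± 4.91 TPM, SD, n = 2). Its long transcripts gave it the most counts of any subunit in replicate 1 and in replicate 2, 17177 and 15383. In each library Scn2a was slightly above Scn8a, 1.10-fold in replicate 1 and 1.15-fold in replicate 2.

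Scn1a encodes NaV1.1, known for its role in fast-spiking inhibitory interneurons and in Dravet syndrome. It was measured at 39.2 and 38.6 TPM (38.9 ± 0.424 TPM, SD, n = 2). Its 2 libraries were the closest of any subunit in proportion to the mean, and Scn8a exceeded it 2.91-fold and 3.13-fold.

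Scn3a encodes NaV1.3, a channel best known from the embryonic and neonatal brain. It was still well detected in these adults, at 17.0 and 15.95 TPM (16.5 ± 0.721 TPM, SD, n = 2) from 2762 and 2156 counts, above 48.0% of detected protein-coding genes.

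Scn9a encodes NaV1.7, a channel of peripheral sensory neurons with a central role in pain. It was the lowest of the 8 genes, at 2.22 and 2.06 TPM (2.14 ± 0.113 TPM, SD, n = 2) from 381 and 261 counts. An antisense gene, Gm13629, overlaps Scn9a and had 51 and 39 counts. The sources used here do not say whether the counting used strand, so reads of Scn9a and Gm13629 in the shared stretch cannot be told apart.

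Levels of other alpha subunit genes given here were lower than that of Scn9a. Scn7a, which encodes the atypical channel NaX, had 0.880 and 1.13 TPM from 135 and 144 counts. The skeletal muscle gene Scn4a and the sensory neuron gene Scn10a each had 0 and 2 counts, and Scn11a, also a sensory neuron gene, had 2 and 0 counts. Scn4a, Scn10a and Scn11a were at or under 3 counts, the limit that a count of 0 allows, so they were not detectable at this depth. The 5 alpha subunit genes Scn1a, Scn2a, Scn3a, Scn8a and Scn9a together summed to 298 and 317 TPM (308 ± 13.4 TPM, SD, n = 2).

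Within that sum the proportions were much alike in both animals. Scn2a held 42.2% in replicate 1 and 44.0% in replicate 2, and Scn8a held 38.3% and 38.2%. Scn1a held 13.2% and 12.2%, and Scn3a held 5.69% and 5.03%. The share of Scn9a was 0.745% and 0.650%. The Scn2a and Scn8a transcripts thus made up most of the RNA of these 5 genes in each library.

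Scn2b encodes the beta2 subunit, which is linked to the alpha subunit by a disulphide bond. It was measured at 131 and 119.9 TPM (125 ± 7.62 TPM, SD, n = 2) from 12083 and 9323 counts. Its level lay within the range of the highest alpha subunit genes. The order of Scn2b and Scn2a differed between the animals, since Scn2a was 0.962 times Scn2b in replicate 1 and 1.16 times in replicate 2. Scn8a against Scn2b changed sides in the same way, at 0.873 and 1.01 times.

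Scn3b encodes the beta3 subunit, which binds the alpha subunit without a covalent bond. It was measured at 112 and 105 TPM (109 ± 5.01 TPM, SD, n = 2) from 7944 and 6042 counts. Scn2b exceeded it 1.17-fold and 1.14-fold.

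Scn4b encodes the beta4 subunit, which is disulphide-linked like beta2 and is known for its part in resurgent sodium current and for high expression in striatal neurons and Purkinje cells. It was the lowest of these 3 beta subunit genes, at 8.14 and 10.2 TPM (9.18 ± 1.46 TPM, SD, n = 2) from 838 and 878 counts. In proportion to the mean, its SD was the largest of the 8 genes.

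**Figure D1:**
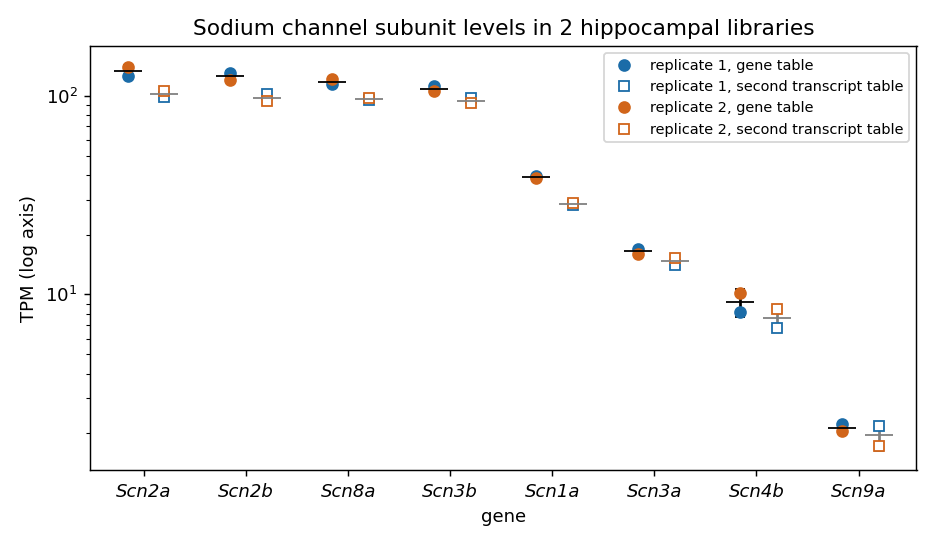
Level of each sodium channel subunit gene in TPM on a log axis, with 1 point per library, filled circles for the gene table and open squares for the second transcript table, which was quantified separately. Horizontal marks are means and bars are the SD over 2 libraries. Scn2a, Scn2b, Scn8a and Scn3b lie together above 90 TPM, and Scn1a, Scn3a, Scn4b and Scn9a step down to about 2 TPM.

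By mean TPM the order of the 8 genes was Scn2a, Scn2b, Scn8a, Scn3b, Scn1a, Scn3a, Scn4b and Scn9a. A step in this order was counted as larger than the spread where it was wider than either gene's SD and pointed the same way in each library, which held for 5 of 7 neighbouring pairs. Scn2a and Scn2b were not separated by this rule, nor were Scn2b and Scn8a. The widest step was from Scn4b to Scn9a, a 4.29-fold difference of means, followed by 2.79-fold from Scn3b to Scn1a and 2.36-fold from Scn1a to Scn3a. From Scn8a to Scn3b the step was only 1.08-fold.

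A second transcript table of each library, in the column layout of the program kallisto, gave the same order for 7 of 7 neighbouring pairs of means. Steps larger than the spread numbered 4 there, since Scn8a and Scn3b were not separated, with Scn8a at 0.978 times Scn3b in replicate 1 and 1.06 times in replicate 2. Its levels were lower for every subunit, from 0.734 times those of the gene table for Scn1a to 0.914 times for Scn9a. For example, Scn2a was at 98.2 and 105 TPM, Scn8a at 95.1 and 97.0 TPM and Scn2b at 102 and 93.9 TPM in that table.

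Assignment of reads among the subunit genes bears on these levels, because the alpha subunit genes are alike in sequence. Coding sequences of the 5 alpha subunit genes were 72.5% to 84.3% identical in pairs, with Scn2a and Scn3a the closest at 84.3% and 822 shared runs of 31 bases between their transcripts. Scn8a shared the fewest such runs with the others, 7 with Scn1a to 46 with Scn3a. The beta subunit genes were 59.4% to 61.1% identical in pairs and shared no run of that length. The deposited posterior SD of the count, a measure of uncertain read assignment, was 0 for Scn8a, Scn2b, Scn3b and Scn4b and between 3.32 and 8.10 counts for the other 4 genes. Even for Scn9a, the gene with the fewest counts, this was a small part of its 381 and 261 counts.

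The ratio of replicate 2 over replicate 1 was formed from counts after TMM scaling, which sets most genes to no difference on average, and carries a 95% counting interval that covers counting error only. A gene was called 2-fold different where its log2 ratio was 1 or more in either direction, its counts averaged 50 or more and its interval excluded no difference. None of the 8 subunit genes met this criterion. Among all 14434 genes with that count, 1.10% met the criterion, 85 genes higher in replicate 2 and 74 lower.

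Smaller differences beyond counting error were found for 7 of the 8 genes, with 3 higher and 4 lower in replicate 2. Among the 9717 genes with at least 321 counts on average, the mean count of the lowest subunit Scn9a, 50.7% had an interval that excluded no difference. The median size of the log2 ratio was 0.13 over the 8 genes and 0.11 over those 9717 genes. By these medians the subunit genes differed between the animals about as much as the 9717 genes. Those genes share a minimum count and were not matched to the counts of each subunit gene. Counting intervals narrow with higher counts, so 7 of 8 and 50.7% are not a matched comparison.

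The abundant alpha and beta subunit genes moved apart. Scn2a had a log2 ratio of 0.14 (interval 0.11 to 0.17) and Scn8a of 0.10 (0.07 to 0.13). In contrast, Scn2b had a log2 ratio of -0.12 (-0.15 to -0.08) and Scn3b of -0.14 (-0.18 to -0.09). The intervals of the alpha pair and of the beta pair did not overlap. No scaling between libraries can change this contrast, because the ratio of Scn2a to Scn2b was formed within each library and was 0.962 in replicate 1 and 1.16 in replicate 2, with 0.964 and 1.12 in the second transcript table.

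Scaling did set the sign of the ratios to 0. With libraries scaled to the ERCC spike-ins, the median log2 ratio of all 14434 genes moved from -0.02 to -0.26, and Scn2a and Scn8a turned to -0.10 and -0.14. Relative to that median they stayed higher, and Scn2b and Scn3b lower. Under TMM scaling, 774 genes with an effective transcript length of at least 6000 bases, as Scn2a and Scn8a have, had a median log2 ratio of -0.04. The median was also -0.04 over 2032 genes of 4000 to 6000 bases, as Scn2b has. It was -0.02 over 6141 genes of 2000 to 4000 bases, as Scn3b has, and 0.00 for 5487 genes under 2000 bases. The part of transcript length in the subunit ratios was not tested. Markers of glutamatergic neurons had a median log2 ratio of 0.09 and markers of interneurons of -0.10, and their part in the subunit ratios was not tested.

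Of the less abundant alpha subunit genes, Scn1a had a log2 ratio of -0.01 (-0.07 to 0.05), the only interval of the 8 that included no difference. Scn3a had a log2 ratio of -0.10 (-0.18 to -0.02) and Scn9a of -0.29 (-0.52 to -0.06), the widest interval of the 8. Scn3a was at -0.07 with an interval that included no difference in the second transcript table.

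Scn4b had a log2 ratio of 0.33 (0.19 to 0.46), the largest in size of the 8 genes in the gene table with TMM scaling. Scn9a was larger in size in the second transcript table, at -0.36 against 0.30 for Scn4b, and under spike-in scaling, at -0.53. Among the 9717 genes of such counts, 9.83% had a larger ratio in size. Under spike-in scaling Scn4b was at 0.08, the smallest in size of the 8 genes, and its interval included no difference. Markers of striatal neurons, a cell type rich in Scn4b, summed to 42.8 and 50.7 TPM. Of the 6 striatal markers 5 were at 1 TPM or more in both libraries, among them Drd1 at 3.60 and 8.80 TPM and Drd2 at 1.67 and 1.81 TPM. The part of these cells, and of the choroid plexus RNA in replicate 2, in the ratio of Scn4b was not tested.

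**Figure D2:**
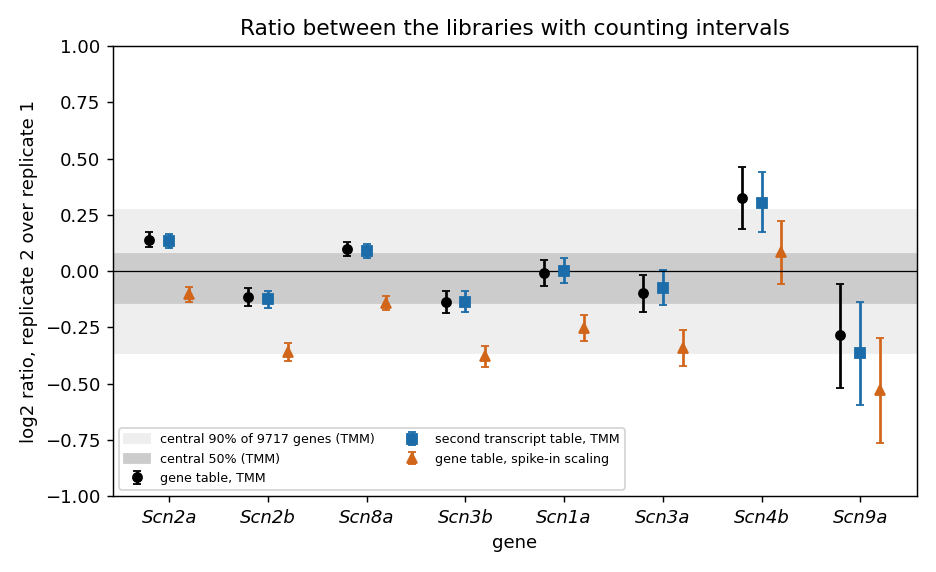
Log2 ratio of replicate 2 over replicate 1 for each subunit gene with its 95% counting interval, from the gene table with TMM scaling (circles), the second transcript table with TMM scaling (squares) and the gene table with spike-in scaling (triangles). Grey bands hold the central 50% and 90% of 9717 genes with at least the count of Scn9a. Scn2a and Scn8a lie above 0 and Scn2b and Scn3b below it under TMM scaling, and spike-in scaling shifts all 8 genes down.

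Annotated transcripts of the 8 genes numbered 60, of which 42 were protein-coding. Each is named by its gene and a number, as in the annotation. Transcripts were deposited in 2 quantifications, the first in the column layout of the program RSEM, on which the gene table rests, and the second in that of kallisto. Only transcripts that held at least 10% of their gene's TPM in either library of the first table, 23 in all, are treated as main forms. For 16 of these 23 the share differed by at least 10 percentage points between the tables in both libraries, so isoform levels are given from both.

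Protein-coding transcripts held most of the RNA of every subunit gene. They took 100% of Scn2b and Scn4b, whose annotated transcripts are all coding, and 92.5% ± 0.282 of Scn1a, 92.1% ± 1.36 of Scn2a, 91.2% ± 1.72 of Scn3a and 89.5% ± 0.364 of Scn8a (SD, n = 2). For Scn9a the share was 93.9% ± 6.61 and for Scn3b 83.4% ± 0.926 (SD, n = 2). Transcripts that keep an intron held 7.47% ± 1.34 of Scn2a and 9.58% ± 0.395 of Scn8a in the first table and 8.88% ± 0.518 and 5.56% ± 0.121 in the second (SD, n = 2).

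Among Scn2a transcripts that hold exon 5, those with the upstream copy held 59.6% of TPM in replicate 1 and 62.4% in replicate 2, a mean of 61.0% ± 2.01 (SD, n = 2). The second table gave 59.9% and 62.5%. Both tables and both animals were thus close for the exon 5 share of Scn2a, although they split the transcripts differently. The upstream form was divided between Scn2a-201 at 45.2 and 50.2 TPM and Scn2a-202 at 24.5 and 29.2 TPM in the first table, whereas in the second Scn2a-201 had 50.2 and 57.1 TPM and Scn2a-202 was listed near 0. The downstream form was divided between the full-length Scn2a-205, at 18.4 and 16.6 TPM, and the short Scn2a-204, at 28.9 and 31.2 TPM. In the second table these stood the other way round, with Scn2a-205 at 27.3 and 27.9 TPM and Scn2a-204 at 6.36 and 6.31 TPM. The close exon 5 shares thus include the short Scn2a-204. On the full-length forms Scn2a-201, Scn2a-202 and Scn2a-205 alone the tables were less alike.

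The annotated Scn2a transcripts do not differ in exon 5 alone. Scn2a-201 holds 2729 bases that are not in Scn2a-205, and Scn2a-205 holds 142 bases that are not in Scn2a-201, whereas an exon 5 copy is 92 bases. The exon 5 share of Scn2a is therefore a share of annotated transcripts, set also by reads outside exon 5, and the part of those other bases was not tested.

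Scn8a gave a lower share of the upstream copy, 24.5% and 23.8% in the first table and 10.9% and 13.9% in the second. Nearly all of this in the first table, and most of it in the second, came from shortened annotated forms. Scn8a-212, a form of 2565 bases that holds the upstream copy, had 17.6 and 17.4 TPM in the first table but 1.96 and 3.55 TPM in the second. Scn8a-210, a form of 5 exons with 1677 of its 2110 bases in no other Scn8a transcript, had 5.10 and 6.35 TPM in the first table and 4.81 and 5.79 TPM in the second, where it held the most TPM of the forms with the upstream copy. Among the 5 transcripts with the full coding sequence, those with the upstream copy, Scn8a-201 and Scn8a-213, were listed at 0 in both libraries of the first table and held 0.504% and 0.308% in the second. The downstream copy thus took 100% of these 5 Scn8a forms in the first table, although Scn8a-201 had a posterior SD of 88.7 and 242.5 counts. Scn8a-208, which has 5811 coding bases and the upstream copy, is not among the 5. It had 0.550 and 0.950 TPM in the first table and 0.960 and 1.56 TPM in the second. Of the downstream forms in the first table, Scn8a-205 had 48.8 and 48.1 TPM. Scn8a-203 had 12.3 and 18.7 TPM and Scn8a-204 had 10.7 and 12.3 TPM. The second table spread the same forms more evenly, with Scn8a-205 at 21.8 and 19.2 TPM, Scn8a-203 at 24.3 and 29.0 TPM and Scn8a-204 at 19.7 and 22.9 TPM.

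For Scn3a the downstream copy prevailed, with 94.5% and 95.3% in the first table and 95.5% and 83.7% in the second. Its main transcript Scn3a-202, which holds the downstream copy, had 13.7 and 12.5 TPM. The only annotated Scn3a form with the upstream copy, Scn3a-203, is a fragment of 365 bases with 4.86 and 3.15 expected counts, which is too few to set the share closely.

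Scn9a was listed with the opposite arrangement. All of its TPM on forms with exon 5 was assigned to those with the upstream copy, 100% in both libraries and both tables. Scn9a-207, the annotated form with the downstream copy, was listed at 0. However, its posterior SD in the first table was 24.9 and 26.5 counts, where the whole gene had 381 and 261 counts. The share of 100% is therefore not closely set. Scn9a-207 differs from Scn9a-206 by more than exon 5, with 125 bases in Scn9a-206 alone and 92 in Scn9a-207 alone, and the full-length forms of Scn9a were not resolved from one another: Scn9a-202 had 1.32 and 0 TPM and Scn9a-203 had 0 and 1.47 TPM.

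**Figure D3:**
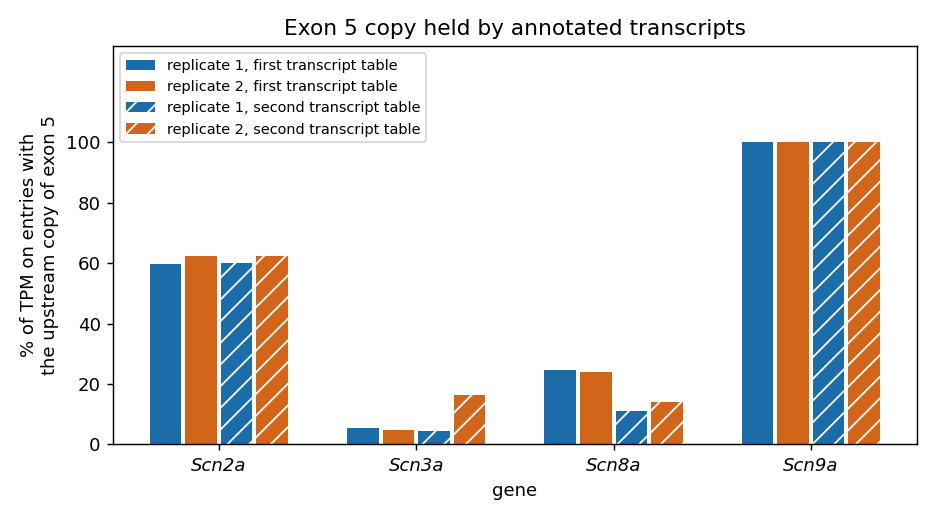
Percent of TPM on annotated transcripts that hold the upstream copy of exon 5, of all TPM on transcripts with either copy, with 1 bar per library and transcript table. Scn2a lies near 60% in all 4 bars, Scn3a and Scn8a lie at or below 24.5%, and Scn9a lies at 100%.

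Scn1a transcripts differed in 3 other features. The exon at chr2:66324571-66324951, which encodes part of the loop between the first and second channel domains, is annotated with 3 ends, giving 381, 348 and 297 bases. The longest form, held by Scn1a-203, took 64.6% and 63.7% of TPM on these forms in the first table and 47.8% and 56.9% in the second. Scn1a-203 was the main transcript in the first table, at 18.8 and 18.5 TPM, and had 11.3 and 13.6 TPM in the second. The next forms were assigned differently, with Scn1a-201 at 10.2 and 7.50 TPM in the first table and near 0 in the second, and Scn1a-206 at 7.13 and 6.80 TPM against 0. Scn1a-204 stood the other way, at 0.050 and 3.02 TPM in the first table and 12.3 and 9.65 TPM in the second, where it exceeded Scn1a-203 in replicate 1.

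The same kind of alternative end occurs in Scn8a and Scn9a. In Scn8a the exon at chr15:100983689-100984075 has forms of 387 and 357 bases, and the longer form held 11.9% and 12.7% in the first table and 28.5% and 29.9% in the second. In both tables the shorter form was the more common one in Scn8a. In Scn9a the forms of 372 and 339 bases were not resolved, with the longer form at 100% and 0% in the first table.

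Scn1a also has 2 first exons 30.8 kb apart. The upstream first exon held 27.7% and 34.7% of TPM on transcripts that begin at either in the first table and 52.0% and 41.6% in the second. Only Scn1a-203 begins at the downstream first exon, so this feature and the longest exon form rest on the same transcript. Scn1a-201, at 10.2 and 7.50 TPM in the first table, is in neither group. The order of the first exons of Scn1a in replicate 1 thus depended on the quantification, and the larger first exon cannot be named from these tables.

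The third feature of Scn1a is an exon of 64 bases that only Scn1a-208 holds, a transcript annotated as a target of nonsense-mediated decay, the pathway that destroys transcripts with early stop codons. Exons of this kind, called poison exons, lower the yield of full-length protein. It is shown because its length is no multiple of 3, so that it shifts the reading frame, and it lies at chr2:66293832-66293895 on the minus strand of GRCm38 (mm10), with the sequence again from GENCODE M21.
Scn1a-208 exon: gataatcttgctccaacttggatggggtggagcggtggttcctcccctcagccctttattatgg

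Scn1a-208 was measured at 1.19 and 0.770 TPM in the first table and at 0.705 and 0.959 TPM in the second. That was 3.04% and 1.99% of Scn1a in the first table and 2.49% and 3.33% in the second. The transcript also holds bases outside this exon, so its level is not a count of reads on the exon.

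Among the beta subunit genes, Scn4b has 1 annotated transcript. Scn2b has 2 with the same coding length of 645 bases, which differ in 698 bases of Scn2b-202 that Scn2b-201 lacks. Scn2b-202 had 98.8 and 95.5 TPM and Scn2b-201 had 31.9 and 24.4 TPM in the first table, whereas the second table placed all of Scn2b on Scn2b-202, at 102 and 93.9 TPM.

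Scn3b was spread over 3 main coding transcripts, each with a coding sequence of 645 bases. Scn3b-202 had 31.6 and 33.6 TPM, Scn3b-203 had 32.3 and 24.2 TPM and Scn3b-201 had 20.8 and 21.1 TPM in the first table. The second table ranked Scn3b-201 first, at 31.9 and 33.5 TPM, followed by Scn3b-203 at 27.8 and 22.4 TPM and Scn3b-202 at 12.7 and 11.7 TPM. Scn3b-203 was lower in replicate 2 in both tables. The non-coding Scn3b-205 had 11.7 and 7.31 TPM in the first table and 10.5 and 8.77 TPM in the second.

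**Figure D4:**
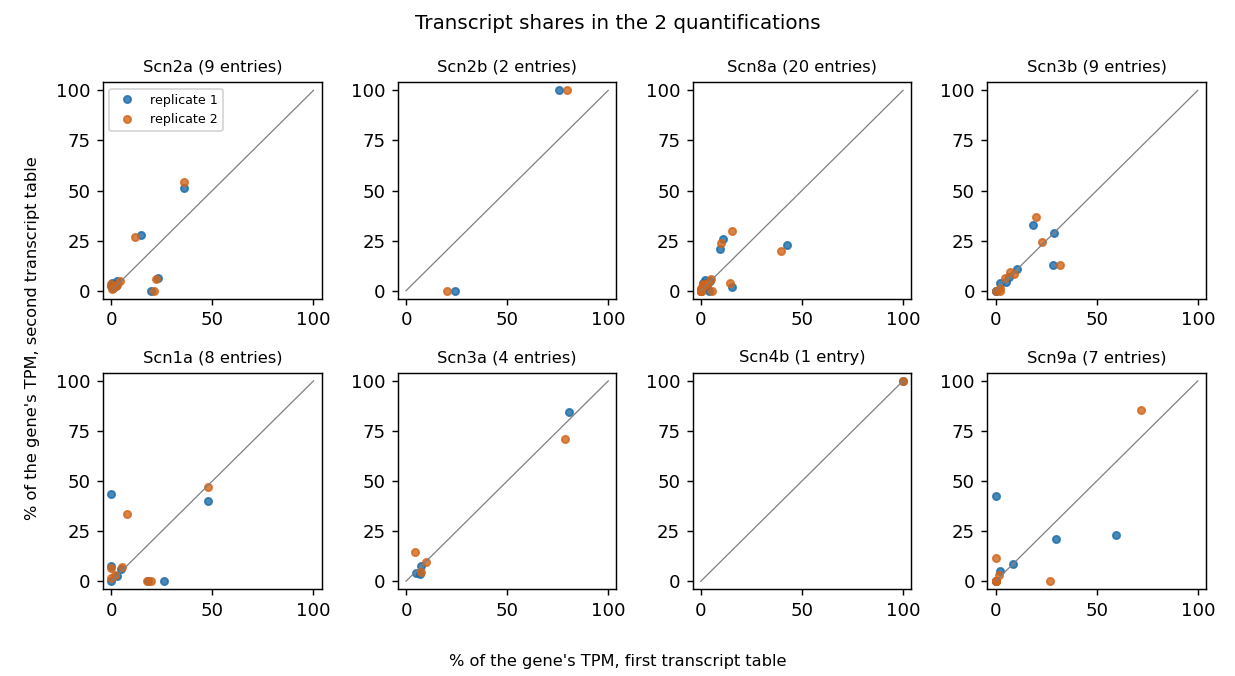
Share of each annotated transcript in its gene's TPM, with the first transcript table on the horizontal axis, the second on the vertical axis, 1 panel per gene and 1 point per transcript and library. The grey line marks equal shares. Points of Scn4b and Scn3a lie near the line, and those of Scn2b, Scn8a, Scn1a and Scn9a include transcripts far from it.

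Sodium channels act with anchoring and modulating proteins. Genes of 5 lists were measured beside the subunits, for such proteins, for splicing regulators of neuronal exons and for the sodium leak channel complex. All of the list genes matched to the tables were at 1 TPM or more in both libraries, and none met the 2-fold criterion, which 1.10% of tested genes did. The 9 genes of the axon initial segment and node scaffold, which holds the channels in place, had a median log2 ratio of -0.04. The 2 highest were the ankyrin gene Ank2 at 368 and 393 TPM and the adhesion molecule gene Nrcam at 258 and 295 TPM, and the lowest was Cntn2 at 45.4 and 41.4 TPM. All 9 were thus above Scn1a, at 38.9 TPM on average.

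The 4 FGF homologous factors, intracellular proteins that bind the alpha subunit tail and shift inactivation, were at levels like those of the subunits. Fgf13 was the highest at 95.7 and 105 TPM, then Fgf12 at 79.5 and 86.1 TPM, and Fgf11 was the lowest at 17.7 and 13.7 TPM. Of these 4 genes 3 had intervals above and 1, Fgf11, below no difference, where 50.7% of genes of such counts had an interval on either side.

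The other binding partners and modifiers included the ubiquitin ligase gene Nedd4, at 153 and 140.3 TPM. In this list of 8 genes 4 had intervals below no difference and 0 above, against 50.7% of genes of such counts with an interval on either side, and the median log2 ratio was -0.12.

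The 9 splicing regulators of neuronal exons had a median log2 ratio of -0.02. Celf4 was the highest at 244 and 214 TPM, Rbfox1 followed at 170 and 163 TPM, and Nova1 was the lowest at 15.3 and 17.4 TPM. Genes of the sodium leak channel complex, which carries a resting sodium current, included Unc80 at 120.5 and 118 TPM, Fam155a at 56.4 and 61.3 TPM and Unc79 at 26.3 and 25.7 TPM.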

How the data were processed

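Hippocampal RNA libraries, 1 per mouse from 2 mice, were analysed as 1 group. Build mm10 and GENCODE M21 are named in the accompanying file notes. The sources used here do not give the aligner, tool versions or strand setting. Expected counts were deposited by the authors per gene and transcript without normalisation, in the RSEM column layout per the file headers, and were rounded to whole numbers here before ratios. Estimated counts per transcript were deposited in the kallisto layout and summed per gene here. TPM was deposited by the authors after length normalisation. FPKM was deposited by the authors and served for an alternative. Per the file headers, the tables also hold a posterior SD of each count, a signal on the scale of counts.

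Ratios used TMM scaling in edgeR 4.0.16 under R 4.3.3 over all annotated genes, with a prior count of 2 and exact Clopper-Pearson 95% intervals. Intervals cover counting error only, and PCR reads without molecular identifiers are not independent molecules. Effective library sizes were 34038000 and 28448000 counts. The scripts were tested on simulated data, and no p-value was computed. Sequences and exon structure came from GENCODE M21, and pairwise alignment used Biopython 1.88 under Python 3.11.15.

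Subunit genes and lists were chosen with earlier results of these data known. Named were all 8 subunit genes, their transcripts at 10% of gene TPM or more, other subunit genes, and of each further list the 2 highest, the lowest and any gene meeting the 2-fold criterion, except some genes that are not reported here. Transcripts below 10%, Slc17a7, Gad1, Drd1, Drd2 and Gm13629 were named after their values were seen. Of 109 list entries 108 matched. Nalf1 did not match, and its older name Fam155a did. The libraries were not duplicates, since 906 of 23337 genes with counts in both had equal expected counts.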

Additional observations from a re-analysis of the deposited data

How the results depend on the processing

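No paired analysis was possible because there is 1 group. The count of genes at least 2-fold apart was 159 and lay between 160 and 214 under DESeq2 size factors, total counts, ERCC scaling, the second transcript table's counts and a prior count of 0.5. It was 1253 without a count minimum. None of the 8 subunit genes met the criterion under any of these 6 alternatives.

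Of 40 alternative log2 ratios of the subunit genes, 35 kept their call. ERCC scaling turned Scn2a to -0.10 and Scn8a to -0.14, brought Scn1a to -0.25 with an interval below no difference, and left Scn4b at 0.08 with an interval that included it. The second transcript table did the same to Scn3a at -0.07. The cause of these changes was not tested.

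Levels moved by more than the SD in all 24 alternatives of unit or table, as these set another scale. They did so in 0 of 16 that left out a library, but this was fixed in advance. Of 2 libraries, each always lies closer to their mean than the SD, so these 16 cannot show whether levels are stable. The share of the upstream exon 5 copy in the second table was 10.4% for Scn3a and 12.4% for Scn8a on average, against 5.10% and 24.1%. The cause was not tested. For Scn2a it was 61.2% and for Scn9a 100%. Without replicate 1 or replicate 2 that share in the first table is the value of the library left, so it is no further check. Those values were between 59.6% and 62.4% for Scn2a, 4.67% and 5.54% for Scn3a, 23.8% and 24.5% for Scn8a and 100% for Scn9a. Transcript shares moved beyond the SD for 16 of 23 main forms in the second table.

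Depth limits Scn9a and transcripts with few counts most. With 2 libraries an SD is itself poorly known, and no test of a difference between animals can be made.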
